A study of Mus musculus with 12 samples.

Results

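The 41 genes described here encode proteins that copy DNA or carry a cell through mitosis. They were taken as a named list whose rule has no threshold on measured values, but which was drawn up with earlier results of these data known, and all 41 were found among the 27785 genes of the expression table. The list holds 13 S phase genes (Tyms, Tk1, Rrm1, Rrm2, Mcm2 to Mcm7, Pcna, Gins2 and Cdc6) and 28 mitotic genes. RNA was measured by sequencing in 12 libraries of mouse rectum in 4 groups. Lgr5-Cdx2-Apc mice (n = 2) carried Lgr5creER, CDX2creER and floxed APC, Lgr5-Apc mice (n = 4) carried Lgr5creER and floxed APC, and Cdx2-Apc mice (n = 3) carried CDX2creER and floxed APC. creER is a Cre recombinase that tamoxifen activates, here placed under Lgr5, a gene of crypt stem cells, or Cdx2, a gene of hindgut epithelium. Apc restrains Wnt signalling. The control samples (n = 3) are titled WT, but their genotype field reads CDX2creER and APC flox with WT in brackets, so the labels do not settle which alleles they carried. Gene-level values cannot tell if the floxed part of Apc was lost, so recombination was not checked here. Tamoxifen at 25 mg/kg for 5 days is in the protocol of all samples, while the treatment field is filled only for the 3 groups named after Apc. Genotype and tamoxifen therefore cannot be told apart in a comparison with control. The labels do not say that the samples are separate animals, so p-values measure only the spread between these samples.

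A cell that enters division first makes deoxynucleotides and loads the MCM helicase on its origins, then copies its DNA in S phase, and later builds a spindle and separates the chromosomes in mitosis. S phase genes are largely driven by E2F factors, while mitotic genes are switched on later through the CHR promoter element, which the DREAM and MYB-MuvB complexes bind together with Foxm1. In the rectum these genes are used chiefly by the dividing cells of the lower crypt, and in the squamous epithelium of the adjoining anal canal by the basal layer.

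The libraries differed in the RNA of tissue markers, and the Lgr5-Cdx2-Apc libraries stood apart in smooth muscle, hair follicle and T cell markers. Lgr5-Apc replicate 2 lay near them in columnar, squamous basal and skeletal muscle markers. Levels are given here as the mean log2(FPKM + 1) of a marker list in each library. Markers of columnar epithelium (10 genes, the defining ones for rectum) were at 6.13 and 3.50 in Lgr5-Cdx2-Apc, 5.64 to 8.42 in Lgr5-Apc, 7.90 to 8.22 in Cdx2-Apc and 7.31 to 8.15 in control, and no marker of the list was at 0 in any library. Within this list Cdx2 was at 18.5 and 1.44 FPKM in Lgr5-Cdx2-Apc and 0.84, 0.25, 0.86 and 151 FPKM in Lgr5-Apc. It was at 15.7, 30.4 and 17.7 FPKM in Cdx2-Apc and 2.71, 4.19 and 22.0 FPKM in control. Smooth muscle (9 genes) was at 3.38 and 2.64 in Lgr5-Cdx2-Apc and 6.06 to 8.58 in the other libraries. Squamous basal cell markers (8 genes) were at 8.75 and 8.60 in Lgr5-Cdx2-Apc, 3.99, 8.27, 6.79 and 1.43 in Lgr5-Apc, 1.86, 2.28 and 5.54 in Cdx2-Apc and 7.19, 3.03 and 2.79 in control. Squamous suprabasal markers (10 genes) were at 7.11 and 9.10 in Lgr5-Cdx2-Apc, 5.06, 10.12, 9.38 and 1.10 in Lgr5-Apc, 1.05, 1.21 and 4.51 in Cdx2-Apc and 6.25, 2.20 and 2.07 in control. Of these genes, 8 had a positive and 2 a negative log2 difference from control. Krt4 and Krt13 were at 1.44 and 1.28 FPKM in Lgr5-Cdx2-Apc replicate 1 and 494 and 118 FPKM in replicate 2. They were at 7351 and 5071 FPKM in Lgr5-Apc replicate 2 and 701 and 1015 FPKM in control replicate 1. Lor was at 616 and 546 FPKM in Lgr5-Cdx2-Apc and at most 2.68 FPKM in control. In Lgr5-Apc it was at 11.1, 867, 484 and 0 FPKM, and in Cdx2-Apc at most 2.35 FPKM. Skeletal muscle markers (9 genes) were at 4.83 and 5.10 in Lgr5-Cdx2-Apc, 2.04, 4.95, 1.07 and 0.57 in Lgr5-Apc, 0.75, 0.45 and 0.97 in Cdx2-Apc and 1.03, 0.77 and 0.92 in control. Hair follicle markers (8 genes) were at 3.83 and 2.77 in Lgr5-Cdx2-Apc and at most 0.89 elsewhere, and Krt27 and Krt73 were listed at 0 in 7 of the 12 libraries. T cell markers (7 genes) were at 2.14 and 2.18 in Lgr5-Cdx2-Apc and at most 0.61 elsewhere, and B cell markers (8 genes, which rectal lymphoid follicles would bring) at most 0.88 in all libraries. Crypt stem cell markers (7 genes) were at 3.95 and 3.88 in Lgr5-Cdx2-Apc, 3.30 to 3.69 in Lgr5-Apc, 3.62 to 3.79 in Cdx2-Apc and 3.57 to 3.85 in control. Against control, limma called 8 of 10 columnar and 9 of 9 smooth muscle markers lower and 8 of 8 hair follicle, 7 of 8 tested skeletal muscle, 5 of 7 T cell, 3 of 10 squamous suprabasal and 0 of 8 squamous basal markers higher in Lgr5-Cdx2-Apc. It also called 1 of 7 crypt stem cell markers, Axin2, higher and 0 of 6 fibroblast markers in either direction. In bulk tissue, fewer cells of a type and less RNA per cell cannot be told apart, and the part of tissue content in the results below was not tested beyond the fits given with them.

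**Figure D1:**
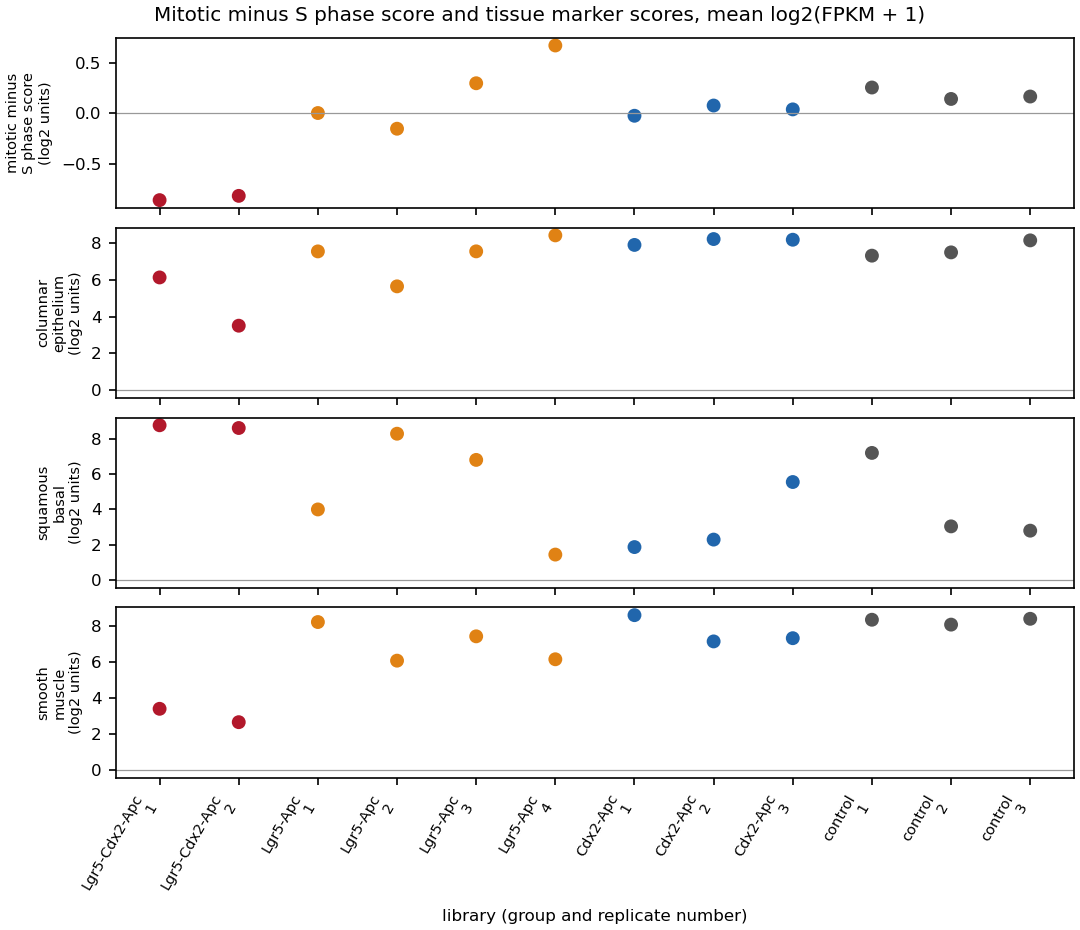
Difference between the mitotic and S phase scores (top) and scores of 3 tissue marker lists, each the mean log2(FPKM + 1) over a list, with 1 point per library coloured by group. The 2 Lgr5-Cdx2-Apc libraries have the lowest mitotic minus S phase values, at -0.86 and -0.81, and also the lowest smooth muscle scores, at 3.38 and 2.64.

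Mitotic genes lay below S phase genes in both Lgr5-Cdx2-Apc libraries. Over the 28 mitotic genes the mean log2(FPKM + 1) was 2.40 and 2.85 in Lgr5-Cdx2-Apc, 2.79, 3.30, 3.50 and 3.50 in Lgr5-Apc, 3.22, 3.55 and 3.43 in Cdx2-Apc and 3.57, 3.27 and 3.42 in control. The Lgr5-Cdx2-Apc libraries lay below all control and Cdx2-Apc libraries, while replicate 2 lay above the lowest Lgr5-Apc library. Over the 13 S phase genes it was 3.26 and 3.66 in Lgr5-Cdx2-Apc, 2.79, 3.45, 3.21 and 2.83 in Lgr5-Apc, 3.24, 3.47 and 3.39 in Cdx2-Apc and 3.32, 3.13 and 3.25 in control, with overlap among all groups. The mitotic minus S phase difference was -0.86 and -0.81 in Lgr5-Cdx2-Apc, 0.00, -0.15, 0.30 and 0.67 in Lgr5-Apc, -0.02, 0.08 and 0.04 in Cdx2-Apc and 0.26, 0.14 and 0.17 in control. These are descriptions with no test. The spread of libraries within groups had a pooled SD of 0.26 for the mitotic and 0.23 for the S phase level.

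**Figure D2:**
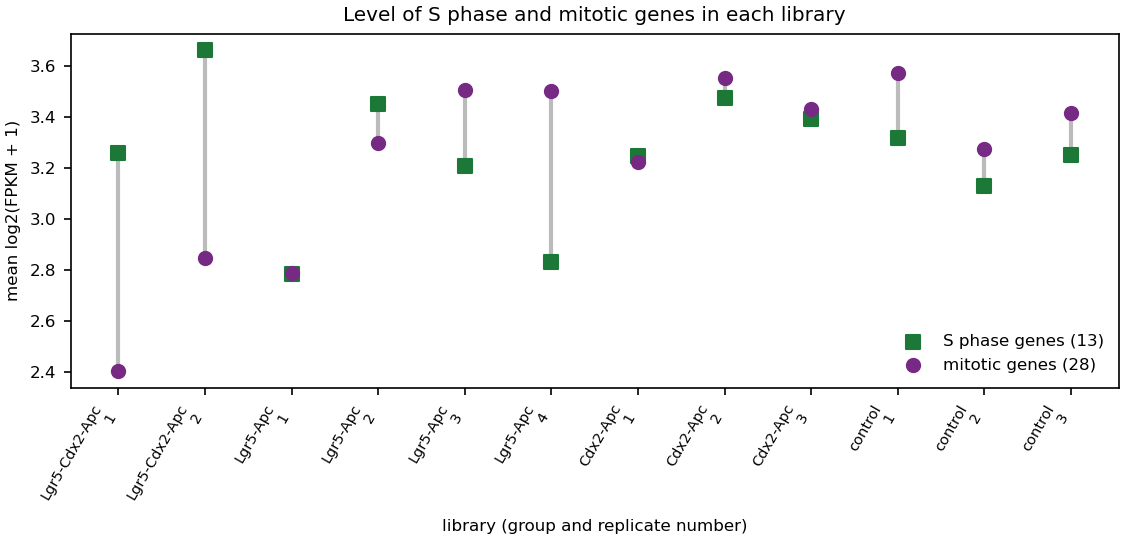
Mean log2(FPKM + 1) over the 13 S phase genes (squares) and the 28 mitotic genes (circles) in each of the 12 libraries, joined by a line per library. In both Lgr5-Cdx2-Apc libraries the mitotic genes lie well below the S phase genes (2.40 against 3.26 and 2.85 against 3.66), and the lowest mitotic minus S phase value of the other libraries is -0.15.

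Single genes are counted by the library that held their extreme value. Of the 28 mitotic genes, 25 had their lowest value of all 12 libraries in Lgr5-Cdx2-Apc replicate 1 and the other 3 in Lgr5-Apc replicate 1. Of the 13 S phase genes, 8 had their highest value in Lgr5-Cdx2-Apc replicate 2, while 6 were lowest in Lgr5-Apc replicate 1 and 6 in Lgr5-Apc replicate 4. Control replicate 1 held the highest value of 10 mitotic genes. The share of all genes with an extreme in each library was not counted, so these counts are a description only. Without overlap with control, 32.1% of all genes were higher and 25.3% lower in Lgr5-Cdx2-Apc.

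**Figure D3:**
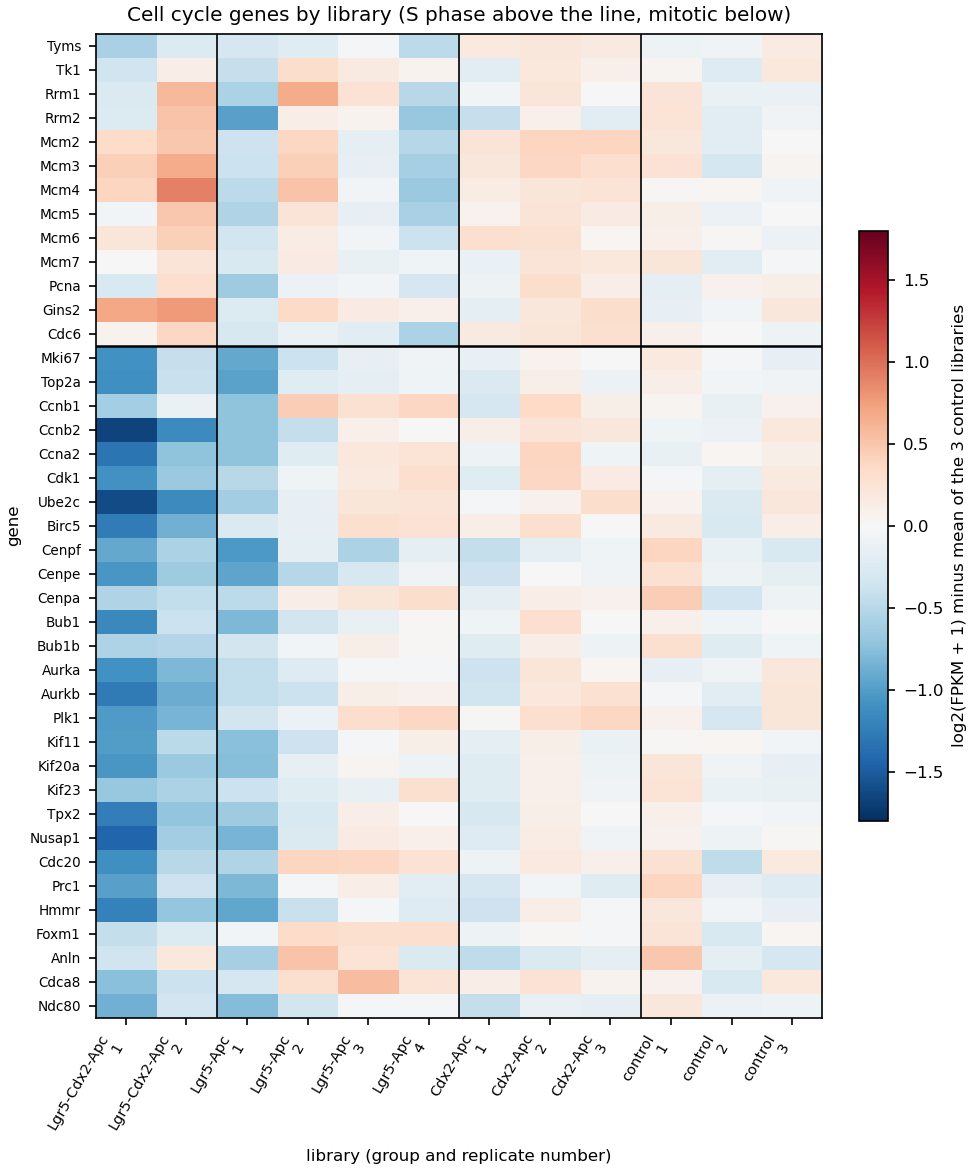
Heat map of log2(FPKM + 1) minus the mean of the 3 control libraries for all 41 genes (rows, S phase above the line) in 12 libraries (columns, Lgr5-Cdx2-Apc at the left, control at the right). The first column, Lgr5-Cdx2-Apc replicate 1, is the lowest library for 25 of the 28 mitotic genes, and the second, replicate 2, is the highest for 8 of the 13 S phase genes. The share of all genes with an extreme in these libraries was not counted.

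Promoters are shown for some members of each list as examples of short elements. The mitotic genes shown were called lower than control. The S phase genes shown were not called, at a limma adjusted p of 0.187 for Mcm3, 0.564 for Mcm5 and 0.227 for Mcm6. All 3 hold an E2F site, which only 5 of 11 S phase windows do. A link between these elements and the levels was not tested. RefSeq promoter windows on GRCm38.p6, from 250 bases before to 50 bases after the gene start, were matched for 34 of the 41 members. A total of 3 motifs were searched on both strands: the CHR core TTTGAA, the CCAAT box CCAAT, and the E2F sites TTTCCCGC and TTTGGCGC, and adjacent CCAAT boxes can share letters (CCAATTGG). In the windows below, printed 5′ to 3′ on the gene's strand, capitals mark these motifs in either orientation. The mitotic genes are Ccnb2 (chr9:70421505-70421804, minus strand), Ube2c (chr2:164769679-164769978, plus strand) and Cdk1 (chr10:69352863-69353162, minus strand), and the S phase genes are Mcm3 (chr1:20820263-20820562, minus strand), Mcm5 (chr8:75109259-75109558, plus strand) and Mcm6 (chr1:128359656-128359955, minus strand).
Ccnb2: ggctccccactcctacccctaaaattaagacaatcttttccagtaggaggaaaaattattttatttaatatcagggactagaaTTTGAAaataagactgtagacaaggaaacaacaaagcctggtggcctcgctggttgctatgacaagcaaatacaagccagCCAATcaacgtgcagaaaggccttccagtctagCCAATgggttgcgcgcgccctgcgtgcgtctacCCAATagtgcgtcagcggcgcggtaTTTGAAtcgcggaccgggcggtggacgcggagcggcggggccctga
Ube2c: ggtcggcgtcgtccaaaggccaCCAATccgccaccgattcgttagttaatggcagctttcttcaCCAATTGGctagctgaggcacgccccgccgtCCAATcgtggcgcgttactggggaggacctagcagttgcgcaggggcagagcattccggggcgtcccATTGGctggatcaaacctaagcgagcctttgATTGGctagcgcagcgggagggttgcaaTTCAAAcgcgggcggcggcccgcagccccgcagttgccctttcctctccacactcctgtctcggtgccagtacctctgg
Cdk1: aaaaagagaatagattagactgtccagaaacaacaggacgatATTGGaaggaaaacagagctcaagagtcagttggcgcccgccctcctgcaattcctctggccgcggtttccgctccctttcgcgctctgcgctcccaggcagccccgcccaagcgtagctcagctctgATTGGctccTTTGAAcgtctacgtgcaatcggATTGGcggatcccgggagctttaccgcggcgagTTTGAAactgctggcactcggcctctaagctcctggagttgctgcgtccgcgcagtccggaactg
Mcm3: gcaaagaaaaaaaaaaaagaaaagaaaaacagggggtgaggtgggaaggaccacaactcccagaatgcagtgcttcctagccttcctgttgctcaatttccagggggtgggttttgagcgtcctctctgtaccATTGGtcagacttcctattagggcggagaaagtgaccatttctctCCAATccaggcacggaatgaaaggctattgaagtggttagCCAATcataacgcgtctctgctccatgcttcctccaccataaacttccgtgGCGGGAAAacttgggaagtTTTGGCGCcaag
Mcm5: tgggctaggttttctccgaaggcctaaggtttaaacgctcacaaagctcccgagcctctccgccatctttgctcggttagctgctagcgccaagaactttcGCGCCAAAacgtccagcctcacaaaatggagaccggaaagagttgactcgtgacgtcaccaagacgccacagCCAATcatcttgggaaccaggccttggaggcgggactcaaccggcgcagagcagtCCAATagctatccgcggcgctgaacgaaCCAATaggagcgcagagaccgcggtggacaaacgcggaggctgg
Mcm6: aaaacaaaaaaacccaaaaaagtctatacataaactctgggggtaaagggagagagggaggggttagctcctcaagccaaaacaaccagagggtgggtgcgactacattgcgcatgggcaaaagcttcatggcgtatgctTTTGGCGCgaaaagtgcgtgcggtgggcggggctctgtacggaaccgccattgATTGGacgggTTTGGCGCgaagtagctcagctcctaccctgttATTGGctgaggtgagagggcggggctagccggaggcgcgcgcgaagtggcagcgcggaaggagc

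The CHR core was found in 18 of 23 mitotic windows (78.3%), in 1 of 11 S phase windows (9.1%), that of Mcm2, and in 18.1% of all 27025 windows searched. These held 1 window per gene symbol and were not limited to the 17360 genes tested, while all members were among those tested. A CCAAT box was found in 82.6% of mitotic, 72.7% of S phase and 37.9% of all windows, and both elements together in 69.6%, 9.1% and 7.1%. An E2F site was found in 5 of 11 S phase windows (45.5%), those of Cdc6, Mcm3, Mcm5, Mcm6 and Mcm7, in 0 of 23 mitotic windows and in 1.6% of all windows. The windows of Birc5 and Nusap1, both called below, hold none of these letters, which says nothing of the factors that bind there. A match is a description of the sequence and not a measured site.

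The comparison of Lgr5-Cdx2-Apc with control asked what differs in rectum where both drivers target Apc. It called 12 of the 28 mitotic genes lower and 0 higher, and 1 of the 13 S phase genes higher and 0 lower (limma, Benjamini-Hochberg adjusted p below 0.05 over 17360 genes). Among all genes tested 8.55% were called lower and 10.5% higher, 19.1% in all. At an unadjusted p under 0.05 stood 24 mitotic and 2 S phase genes, where 36.9% of all genes did. All 28 mitotic genes had a negative log2 difference, with a median of -0.79, and the libraries did not overlap for 25 of them, where 25.3% of all genes were without overlap and lower. The S phase genes had a median of 0.21, with 11 positive, 5 without overlap and higher (32.1% of all genes) and 1, Tyms, without overlap and lower. The median of all genes tested was 0.07.

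**Figure D4:**
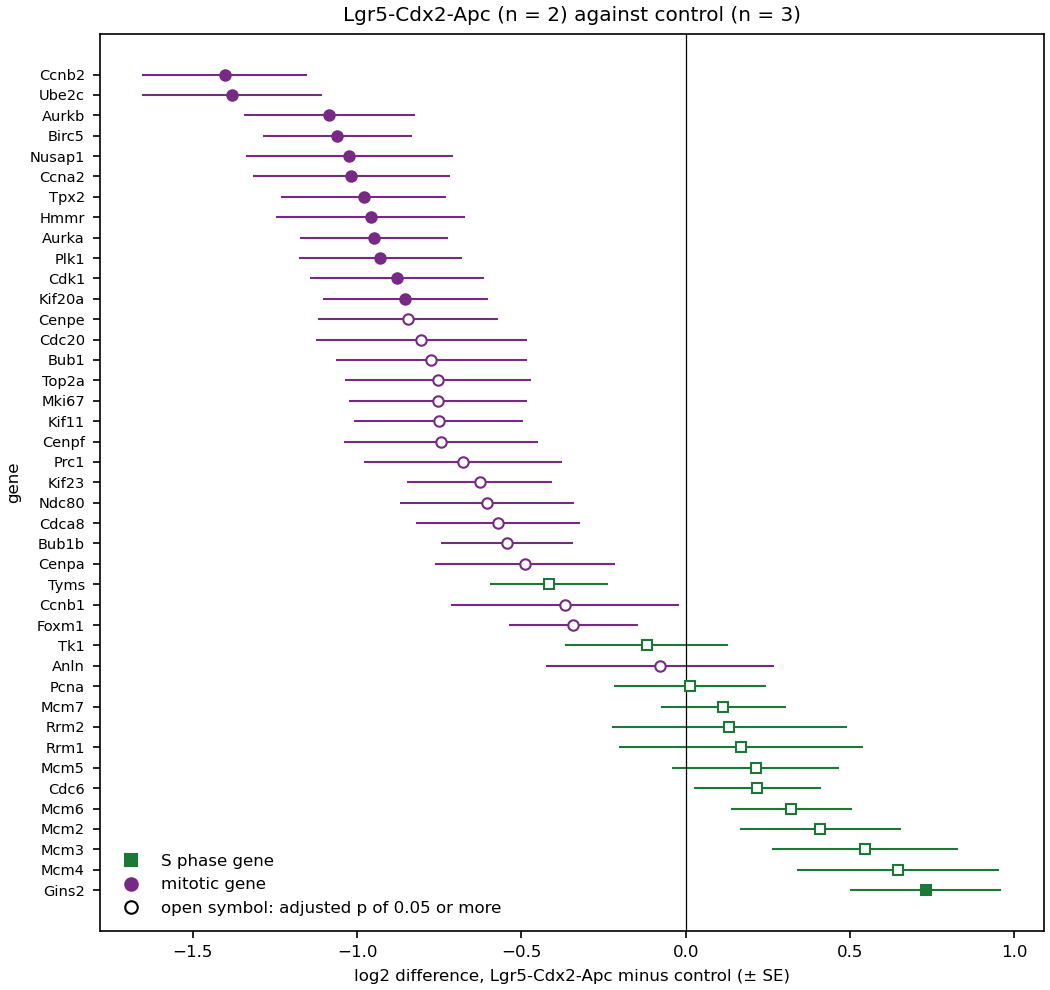
Log2 difference of log2(FPKM + 1) between Lgr5-Cdx2-Apc (n = 2) and control (n = 3) for the 41 genes, with standard errors as bars; squares are S phase genes, circles mitotic genes, and filled symbols genes with a limma adjusted p below 0.05. The differences run from -1.40 for Ccnb2 to 0.73 for Gins2, and all 28 mitotic genes lie below 0.

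Cyclins and Cdk1, the kinase that cyclins A and B activate to bring a cell into mitosis, were called lower than control for 3 of 4 genes. Of all genes tested, 8.55% were called lower. Ccnb2, cyclin B2, had 4.70 and 7.15 FPKM in Lgr5-Cdx2-Apc, against 9.93, 12.4, 18.1 and 16.8 FPKM in Lgr5-Apc, 18.4, 20.2 and 19.7 FPKM in Cdx2-Apc and 16.1, 15.7 and 19.5 FPKM in control. Both Lgr5-Cdx2-Apc libraries were below each of the other 10, and the log2 difference from control was -1.40 ± 0.25 (SE; limma adjusted p = 0.00801). Ccna2, cyclin A2, had 8.68 and 13.6 FPKM in Lgr5-Cdx2-Apc, against 13.6, 19.7, 26.4 and 27.5 FPKM in Lgr5-Apc, 21.7, 30.5 and 21.8 FPKM in Cdx2-Apc and 20.9, 23.6 and 24.9 FPKM in control. Its Lgr5-Cdx2-Apc values lay below control and Cdx2-Apc and overlapped with Lgr5-Apc by replicate 1, at a difference from control of -1.02 ± 0.30 (SE; limma adjusted p = 0.0408). Cdk1 had 5.84 and 8.11 FPKM in Lgr5-Cdx2-Apc, against 9.26, 12.8, 15.5 and 16.9 FPKM in Lgr5-Apc, 11.4, 17.9 and 15.1 FPKM in Cdx2-Apc and 13.3, 12.03 and 15.4 FPKM in control. Both Lgr5-Cdx2-Apc libraries were again the lowest of the 12, and the difference from control was -0.88 ± 0.27 (SE; limma adjusted p = 0.0432). Ccnb1, cyclin B1, did not pass, with 3.09 and 4.77 FPKM in Lgr5-Cdx2-Apc, against 2.81, 7.502, 6.604 and 7.14 FPKM in Lgr5-Apc, 4.06, 7.05 and 5.75 FPKM in Cdx2-Apc and 5.499, 4.72 and 5.61 FPKM in control. Its lowest library was Lgr5-Apc replicate 1, the groups overlapped, and the difference from control was -0.37 ± 0.35 (SE; 95% interval -1.13 to 0.40; limma adjusted p = 0.466).

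Mitotic kinases and the chromosomal passenger complex, which corrects how chromosomes attach to the spindle, were called lower for 4 of 5 genes. The share of all genes called lower was 8.55%. Birc5, or survivin, had 6.03 and 8.22 FPKM in Lgr5-Cdx2-Apc, against 12.97, 14.2, 19.5 and 19.1 FPKM in Lgr5-Apc, 17.2, 19.6 and 15.7 FPKM in Cdx2-Apc and 17.8, 12.9 and 17.2 FPKM in control. Both Lgr5-Cdx2-Apc libraries were the lowest, at a log2 difference from control of -1.06 ± 0.23 (SE; limma adjusted p = 0.0152). Aurkb, the Aurora B kinase of the same complex, had 3.84 and 5.30 FPKM in Lgr5-Cdx2-Apc, against 7.58, 7.95, 11.6 and 11.3 FPKM in Lgr5-Apc, 8.10, 12.4 and 13.1 FPKM in Cdx2-Apc and 10.6, 9.18 and 12.6 FPKM in control. It differed from control by -1.08 ± 0.26 (SE; limma adjusted p = 0.0212), again with no overlap. Aurka, the Aurora A kinase of spindle poles, had 2.35 and 3.07 FPKM in Lgr5-Cdx2-Apc, against 4.24, 5.07, 6.01 and 5.93 FPKM in Lgr5-Apc, 4.49, 7.26 and 6.28 FPKM in Cdx2-Apc and 5.45, 5.83 and 7.22 FPKM in control. Plk1, the Polo-like kinase of mitotic entry, had 3.66 and 4.29 FPKM in Lgr5-Cdx2-Apc, against 6.51, 7.82, 10.8 and 11.3 FPKM in Lgr5-Apc, 8.60, 10.6 and 11.2 FPKM in Cdx2-Apc and 9.00, 6.66 and 10.0 FPKM in control. The Lgr5-Cdx2-Apc libraries were the lowest for both kinases, with differences from control of -0.95 ± 0.23 (SE; limma adjusted p = 0.0202) for Aurka and -0.93 ± 0.25 (SE; limma adjusted p = 0.0300) for Plk1. Cdca8, or borealin, was at -0.57 ± 0.25 (SE; 95% interval -1.13 to -0.02; limma adjusted p = 0.126) and did not pass.

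Ube2c, the ubiquitin-conjugating enzyme that works with the anaphase-promoting complex to have cyclin B destroyed, was among the most reduced members. It had 7.52 and 10.7 FPKM in Lgr5-Cdx2-Apc, against 15.8, 22.5, 29.1 and 29.4 FPKM in Lgr5-Apc, 24.3, 26.5 and 31.4 FPKM in Cdx2-Apc and 26.1, 20.6 and 29.1 FPKM in control. Both Lgr5-Cdx2-Apc libraries were below the other 10, and the difference from control was -1.38 ± 0.27 (SE; limma adjusted p = 0.0116). Its gene overlaps on the opposite strand with Tnnc2, a skeletal muscle troponin, which was at 48.3 and 40.1 FPKM in Lgr5-Cdx2-Apc and at most 0.91 FPKM in control. Tnnc2 was at 3.51, 31.8, 0.63 and 0 FPKM in Lgr5-Apc and at most 0.77 FPKM in Cdx2-Apc. The library kit keeps strand, but whether the counting used it is not stated; of the 41 members, 10 overlap a gene on the opposite strand. Cdc20, the activator of the same complex, was at -0.80 ± 0.32 (SE; 95% interval -1.51 to -0.09; limma adjusted p = 0.0981) and did not pass.

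Spindle and cytokinesis genes were called lower than control for 4 of 8, where 8.55% of all genes were. All 8 had negative differences, from -1.02 to -0.08. Tpx2, which targets Aurora A to the spindle, had 2.60 and 4.18 FPKM in Lgr5-Cdx2-Apc, against 4.45, 6.05, 8.24 and 7.48 FPKM in Lgr5-Apc, 5.95, 8.12 and 7.55 FPKM in Cdx2-Apc and 8.03, 7.32 and 7.19 FPKM in control. Kif20a, a kinesin of the midzone, had 3.19 and 4.43 FPKM in Lgr5-Cdx2-Apc, against 4.08, 6.76, 7.90 and 7.05 FPKM in Lgr5-Apc, 6.42, 8.19 and 7.12 FPKM in Cdx2-Apc and 8.99, 7.27 and 6.74 FPKM in control. Their differences from control were -0.98 ± 0.25 (SE; limma adjusted p = 0.0263) and -0.85 ± 0.25 (SE; limma adjusted p = 0.0402), and for both the Lgr5-Cdx2-Apc libraries lay below control and Cdx2-Apc, while Kif20a overlapped with Lgr5-Apc. Hmmr, a spindle assembly factor, had 1.90 and 3.16 FPKM in Lgr5-Cdx2-Apc, against 2.54, 4.13, 5.68 and 4.77 FPKM in Lgr5-Apc, 4.23, 6.35 and 5.63 FPKM in Cdx2-Apc and 6.79, 5.51 and 5.07 FPKM in control. Nusap1, which binds spindle microtubules, had 2.76 and 5.58 FPKM in Lgr5-Cdx2-Apc, against 4.63, 7.46, 10.2 and 9.81 FPKM in Lgr5-Apc, 7.60, 10.0 and 8.63 FPKM in Cdx2-Apc and 9.67, 8.46 and 9.24 FPKM in control. Their differences were -0.96 ± 0.29 (SE; limma adjusted p = 0.0426) and -1.02 ± 0.32 (SE; limma adjusted p = 0.0461), and both overlapped with Lgr5-Apc. The other 4 did not pass: the kinesins Kif11 and Kif23 and the microtubule bundler Prc1 were at -0.75, -0.63 and -0.68, and Anln, or anillin of the cleavage furrow, was at -0.08 ± 0.35 (SE; 95% interval -0.85 to 0.69; limma adjusted p = 0.889), the value closest to 0 of all mitotic genes.

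No gene of the kinetochore and the spindle checkpoint passed, although all 6 were negative, from -0.85 for Cenpe, a kinetochore motor, to -0.49 for Cenpa, the centromeric histone. Proliferation markers did not pass either. Mki67, which coats mitotic chromosomes and is stained as Ki-67 to count dividing cells, had 13.8 and 22.6 FPKM in Lgr5-Cdx2-Apc, against 15.7, 23.0, 27.5 and 29.3 FPKM in Lgr5-Apc, 27.7, 31.9 and 30.5 FPKM in Cdx2-Apc and 34.8, 29.7 and 27.5 FPKM in control. Top2a, the topoisomerase that untangles chromosomes, had 12.1 and 20.4 FPKM in Lgr5-Cdx2-Apc, against 13.5, 23.3, 24.1 and 25.9 FPKM in Lgr5-Apc, 22.5, 29.5 and 25.3 FPKM in Cdx2-Apc and 29.8, 26.2 and 26.0 FPKM in control. For both genes the 2 Lgr5-Cdx2-Apc libraries lay below control but the difference did not pass, at -0.75 ± 0.27 (SE; 95% interval -1.35 to -0.15; limma adjusted p = 0.0737) for Mki67 and -0.76 ± 0.28 (SE; 95% interval -1.38 to -0.13; limma adjusted p = 0.0831) for Top2a. Foxm1, a transcription factor of mitotic genes, was at -0.34 ± 0.20 (SE; 95% interval -0.78 to 0.09; limma adjusted p = 0.228).

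**Figure D5:**
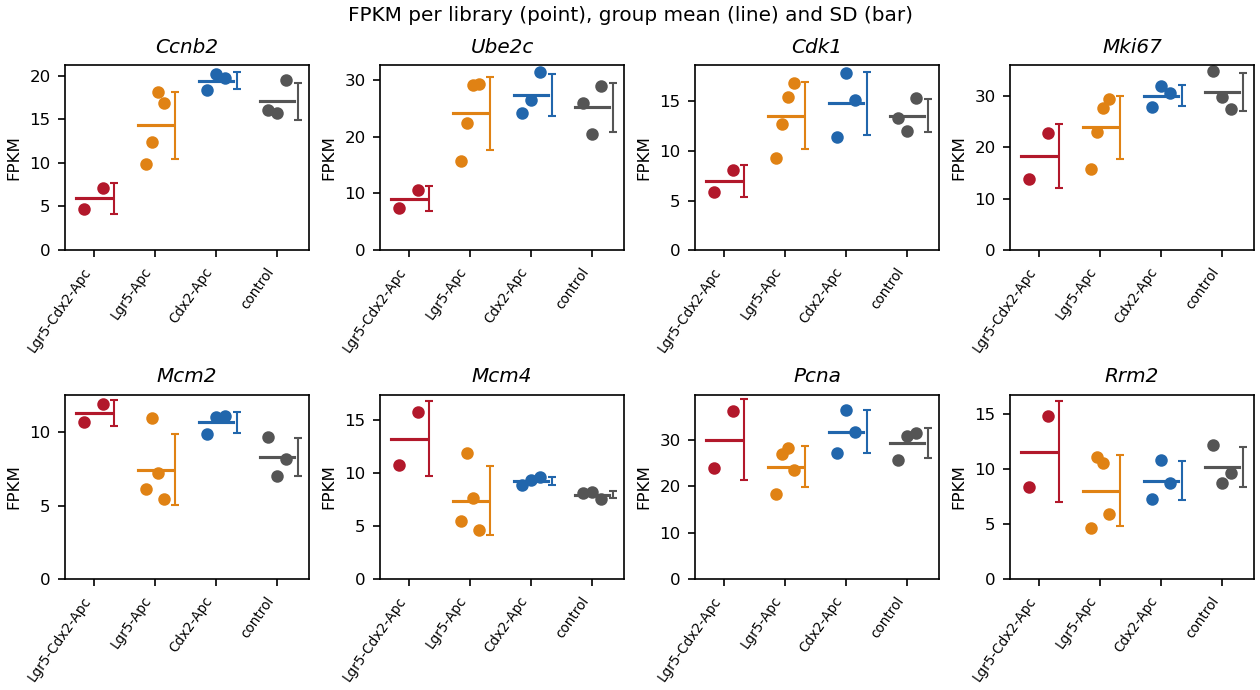
FPKM of 4 mitotic genes (Ccnb2, Ube2c, Cdk1, Mki67) and 4 S phase genes (Mcm2, Mcm4, Pcna, Rrm2) in each library (points), with the group mean (line) and SD (bar); groups run from Lgr5-Cdx2-Apc at the left to control at the right. Ccnb2 is at 4.70 and 7.15 FPKM in Lgr5-Cdx2-Apc and 15.7 FPKM or more in control, while Mcm4 is at 10.7 and 15.7 FPKM in Lgr5-Cdx2-Apc and at most 8.19 FPKM in control.

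No S phase gene was called lower than control. None of the 6 MCM helicase subunits passed, and all were positive, from 0.12 for Mcm7 to 0.65 for Mcm4. Mcm4 had 10.7 and 15.7 FPKM in Lgr5-Cdx2-Apc, against 5.45, 11.8, 7.68 and 4.62 FPKM in Lgr5-Apc, 8.87, 9.37 and 9.60 FPKM in Cdx2-Apc and 8.10, 8.19 and 7.58 FPKM in control. Mcm2 had 10.6 and 11.9 FPKM in Lgr5-Cdx2-Apc, against 6.16, 10.9, 7.24 and 5.45 FPKM in Lgr5-Apc, 9.84, 11.03 and 11.1 FPKM in Cdx2-Apc and 9.66, 7.04 and 8.17 FPKM in control. Both Lgr5-Cdx2-Apc libraries were above all control libraries for Mcm2, Mcm3, Mcm4 and Mcm6, at differences of 0.65 ± 0.31 (SE; 95% interval -0.03 to 1.32; limma adjusted p = 0.152) for Mcm4 and 0.41 ± 0.25 (SE; 95% interval -0.13 to 0.95; limma adjusted p = 0.247) for Mcm2, and both intervals hold 0. Gins2, a subunit of the GINS complex that works with the helicase at the fork, was the only S phase gene called higher. Among all genes tested 10.5% were called higher. Its gene overlaps Gse1 and Gm20388 on the opposite strand, and their part in its level was not tested. Gins2 had 3.22 and 3.43 FPKM in Lgr5-Cdx2-Apc, against 1.21, 2.33, 1.88 and 1.78 FPKM in Lgr5-Apc, 1.30, 1.99 and 2.24 FPKM in Cdx2-Apc and 1.35, 1.52 and 1.99 FPKM in control. The Lgr5-Cdx2-Apc libraries were above the other 10, at 0.73 ± 0.23 (SE; limma adjusted p = 0.0491). Its call lay close to the threshold and did not hold with a pseudocount of 0.1 FPKM, without the filter on low values, with quantile normalization, with the columnar or squamous basal score as a covariate or without any 1 of the Lgr5-Cdx2-Apc, Cdx2-Apc and control libraries.

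Pcna, the sliding clamp, had 23.9 and 36.2 FPKM in Lgr5-Cdx2-Apc, against 18.4, 27.0, 28.1 and 23.4 FPKM in Lgr5-Apc, 27.2, 36.4 and 31.6 FPKM in Cdx2-Apc and 25.6, 30.7 and 31.5 FPKM in control. The groups overlapped, the difference from control was 0.01 ± 0.23 (SE; 95% interval -0.50 to 0.53; limma adjusted p = 0.975), and reads may be shared with its pseudogene Pcna-ps2, which reached 22.3 FPKM. Rrm2, a subunit of the reductase that makes deoxynucleotides, had 8.35 and 14.9 FPKM in Lgr5-Cdx2-Apc, against 4.65, 11.1, 10.6 and 5.92 FPKM in Lgr5-Apc, 7.33, 10.8 and 8.72 FPKM in Cdx2-Apc and 12.2, 8.71 and 9.67 FPKM in control. Tk1, thymidine kinase, had 8.16 and 11.7 FPKM in Lgr5-Cdx2-Apc, against 7.75, 13.6, 12.1 and 11.2 FPKM in Lgr5-Apc, 9.16, 12.3 and 11.4 FPKM in Cdx2-Apc and 11.1, 8.95 and 12.3 FPKM in control. Neither separated the groups, at 0.13 ± 0.36 (SE; 95% interval -0.66 to 0.93; limma adjusted p = 0.813) for Rrm2 and -0.12 ± 0.25 (SE; 95% interval -0.67 to 0.43; limma adjusted p = 0.753) for Tk1. Tyms, thymidylate synthase, had 4.33 and 5.73 FPKM in Lgr5-Cdx2-Apc, against 5.51, 5.89, 6.81 and 4.75 FPKM in Lgr5-Apc, 8.03, 8.19 and 7.94 FPKM in Cdx2-Apc and 6.496, 6.69 and 7.86 FPKM in control. Its Lgr5-Cdx2-Apc libraries were below control and overlapped with Lgr5-Apc, at -0.42 ± 0.18 (SE; 95% interval -0.81 to -0.02; limma adjusted p = 0.120). Rrm1, the other reductase subunit, ran from 9.32 FPKM in Lgr5-Apc replicate 1 to 23.3 FPKM in Lgr5-Apc replicate 2. Cdc6, which loads the helicase, ran from 0.81 FPKM in Lgr5-Apc replicate 4 to 2.48 FPKM in Lgr5-Cdx2-Apc replicate 2, and was at 0.22 ± 0.19 (SE; 95% interval -0.21 to 0.65; limma adjusted p = 0.434) against control.

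The count of 13 calls against control moved with the libraries fitted, and so did the share of all genes called, which is 19.1% over all libraries. The member count was 0 without Lgr5-Cdx2-Apc replicate 1, 2 without replicate 2 or without control replicate 3, 5 without control replicate 1 or replicate 2, 8 without Cdx2-Apc replicate 1, and 7 without replicate 2 or replicate 3 of that group. Of all genes, 6.03% were called without Lgr5-Cdx2-Apc replicate 1, 2.47% without its replicate 2, 18.6%, 7.06% and 5.73% without control replicates 1, 2 and 3, and 13.4% to 15.2% without 1 Cdx2-Apc library. With the smooth muscle score as a covariate 0 of all 17360 genes were called, members included, in a fit where the score nearly coincides with the Lgr5-Cdx2-Apc group, so this count says nothing of the members. With the columnar epithelium and squamous basal scores 0 and 1 members were called, where 0.662% and 3.47% of all genes were. The mitotic median was -2.04, -0.97 and -0.89 with the 3 scores, against -0.79 without them. Both Lgr5-Cdx2-Apc smooth muscle scores lie below all other libraries, so the median with that score is an extrapolation and says nothing of the members. Their squamous basal scores also lie above all others, and their lower columnar score lies below all others.

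The comparisons with the groups of 1 driver use the same 2 Lgr5-Cdx2-Apc libraries, so they are not independent of the one with control. Against Lgr5-Apc, limma called 5 mitotic genes lower and 0 S phase genes, where 3.77% of all genes were lower and 5.22% higher, 8.99% in all. An unadjusted p under 0.05 was held by 16 mitotic and 6 S phase genes and by 29.4% of all genes. The 5 called genes were Birc5 (-1.10 ± 0.22; adjusted p = 0.0163), Ube2c (-1.30 ± 0.26; adjusted p = 0.0179), Ccnb2 (-1.13 ± 0.24; adjusted p = 0.0220), Plk1 (-0.99 ± 0.24; adjusted p = 0.0314) and Aurkb (-0.92 ± 0.25; adjusted p = 0.0463), each a log2 difference with its SE and limma adjusted p. The 28 mitotic genes had a median of -0.57, with 12 lower without overlap (14.9% of all genes), and the 13 S phase genes a median of 0.48, with 3 higher without overlap (18.1% of all genes). Those 3 were Gins2, Cdc6 and Mcm6, at 0.64 ± 0.22, 0.51 ± 0.18 and 0.48 ± 0.17 (SE), and none passed. With library totals made equal after removal of short RNAs, 5 S phase genes were called higher and 9 mitotic genes lower, where 9.57% of all genes were higher and 2.18% lower. The 5 calls became 0 without either Lgr5-Cdx2-Apc library, where 3.4% and 1.64% of all genes were called without replicate 1 and replicate 2. They became 9, 14, 2 and 3 without Lgr5-Apc replicates 1, 2, 3 and 4, with 4.01%, 25.7%, 3.17% and 6.88% of all genes called, and 3 without Cdx2-Apc replicate 2 or replicate 3, with 5.29% and 4.81%. With the columnar and squamous basal scores as covariates they became 0, where 0.772% and 3.04% of all genes were called, and with the smooth muscle score no gene of the table was called.

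Against Cdx2-Apc, limma called 11 mitotic genes lower and 1 S phase gene, Tyms, lower, where 11.7% of all genes were lower and 12.1% higher, 23.8% in all. An unadjusted p under 0.05 was held by 21 mitotic and 2 S phase genes and by 39.3% of all genes. The largest differences were Ccnb2 (-1.58 ± 0.25; adjusted p = 0.00422), Ube2c (-1.50 ± 0.27; adjusted p = 0.00723) and Birc5 (-1.20 ± 0.23; adjusted p = 0.00844), and Tyms was at -0.60 ± 0.18; adjusted p = 0.0378. The mitotic median was -0.76, with 25 of 28 lower without overlap (30.4% of all genes), and the S phase median 0.08, with 3 higher and 1 lower without overlap (33.4% and 30.4% of all genes). Members called lower against all 3 groups were Ccnb2, Ube2c, Birc5, Aurkb and Plk1, the same genes that were called against Lgr5-Apc. The share of all genes called lower against all 3 was not counted, so this set is a description only. The 12 calls became 1 and 3 without Lgr5-Cdx2-Apc replicate 1 and replicate 2 (8.89% and 2.91% of all genes called), 4 without Cdx2-Apc replicate 2 or replicate 3 (8.95% and 12.1%) and 19 without Lgr5-Apc replicate 1 (24.2%). They became 0 with the columnar and squamous basal scores as covariates (0.559% and 1.75% of all genes) and with the smooth muscle score, where no gene of the table was called.

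No member passed where Apc was targeted with 1 driver. For Lgr5-Apc against control, limma called 0 of 41, where 0.0115% of all genes were lower and 0 higher, and 0 members had an unadjusted p under 0.05, against 10.8% of all genes. The medians were -0.17 for S phase and -0.18 for mitotic genes, with 1 gene of each list lower without overlap and 0 higher (3.96% of all genes lower and 3.96% higher). For Cdx2-Apc against control, limma called 0 of 41 as well, where 0.0288% of all genes were higher and 0.0115% lower, 0.0403% in all. Again 0 members had an unadjusted p under 0.05 (1.64% of all genes), and the medians were 0.15 and -0.04. Without overlap, 4 S phase genes were higher (5.88% of all genes) and 1 mitotic gene lower (2.7% of all genes). Mki67 was at -0.38 ± 0.23 (SE; 95% interval -0.88 to 0.12; limma adjusted p = 0.536) in Lgr5-Apc and -0.03 ± 0.24 (SE; 95% interval -0.56 to 0.51; limma adjusted p = 1.00) in Cdx2-Apc. For Lgr5-Apc against Cdx2-Apc, 0 of 41 were called (0.0288% of all genes lower and 0.00576% higher, 0.0346% in all). Without overlap, 2 S phase genes and 1 mitotic gene were lower (6.76% of all genes) and 0 higher (4.29%). The S phase genes Cdc6, Tyms, Mcm2 and Mcm6 had an unadjusted p under 0.05 (10.4% of all genes), at -0.51, -0.43, -0.50 and -0.36.

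Within Lgr5-Apc the libraries differed from one another. Replicate 4 had the largest mitotic minus S phase difference of all libraries, at 0.67, and replicate 2 the lowest of its group, at -0.15. Mcm3 was at 5.15, 9.81, 6.23 and 4.28 FPKM in replicates 1, 2, 3 and 4, and Plk1 at 6.51, 7.82, 10.8 and 11.3 FPKM in the same libraries. The squamous basal score of these libraries was 3.99, 8.27, 6.79 and 1.43, and its part in these levels was not tested.

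Other genes of the 2 phases, from lists chosen with earlier results of these data known, were set beside the members. Of 52 further mitotic genes tested, 9 were lower in Lgr5-Cdx2-Apc than in control and 0 higher, where 8.55% of all genes were lower and 10.5% higher, with a median of -0.50 against 0.07 for all genes. The smallest p belonged to Melk, a mitotic kinase, at -1.16 ± 0.22 (SE; limma adjusted p = 0.0102), Nek2, a centrosome kinase, at -0.95 ± 0.23 (SE; limma adjusted p = 0.0212), and Ect2, which starts the cleavage furrow, at -1.03 ± 0.25 (SE; limma adjusted p = 0.0223). Of 40 further replication genes, 0 were higher and 1 lower beside the same shares, with a median of 0.12. The gene that fell was Gmnn, or geminin, which blocks a further round of helicase loading until mitosis, at -1.16 ± 0.20 (SE; limma adjusted p = 0.00691). Rpa2, which coats single-stranded DNA, and Dnmt1, the maintenance DNA methyltransferase, followed at 0.68 ± 0.21 (SE; limma adjusted p = 0.0507) and 0.65 ± 0.25 (SE; limma adjusted p = 0.0872) and did not pass.

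Upstream regulators are read against the same 10.5% of all genes higher and 8.55% lower. Of 20 G1-S regulators and inhibitors tested, 1 was higher in Lgr5-Cdx2-Apc than in control and 0 lower: Cdk2, the S phase kinase, at 0.59 ± 0.18 (SE; limma adjusted p = 0.0477). Cdk6, a G1 kinase, and Trp53, the p53 gene, did not pass, at 0.88 ± 0.32 (SE; limma adjusted p = 0.0753) and 0.58 ± 0.24 (SE; limma adjusted p = 0.106). Of 19 E2F and DREAM genes, 0 were higher and 1 lower: Tfdp2, a dimer partner of E2F proteins, at -0.57 ± 0.14 (SE; limma adjusted p = 0.0251). The activating factors E2f2 and E2f1 did not pass, at 0.92 ± 0.31 (SE; limma adjusted p = 0.0646) and 0.62 ± 0.23 (SE; limma adjusted p = 0.0825). The medians of the lists were 0.02 and 0.00.

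Histone genes, whose messages are made in S phase, held many genes that fell. Replication-dependent histones were taken by name, as genes starting with Hist1h to Hist4h, and the list was not checked for genes outside this class. Of 58 such genes tested, 25 were lower in Lgr5-Cdx2-Apc than in control and 0 higher, where 8.55% and 10.5% of all genes were, with a median of -0.85. The leading genes were Hist1h2bl at -1.53 ± 0.23 (SE; limma adjusted p = 0.00327), Hist1h2bk at -1.34 ± 0.23 (SE; limma adjusted p = 0.00696) and Hist1h2bb at -1.34 ± 0.24 (SE; limma adjusted p = 0.00806). Many of these genes have near-identical copies within their histone type, so reads may be split between copies and single values are uncertain. The share of FPKM taken by short RNAs ran from 18.3% to 49.7% over the libraries, at 43.8% and 37.8% in Lgr5-Cdx2-Apc and 49.7%, 28.5% and 46.0% in control, and its part in the histone values was not tested.

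Against the groups of 1 driver the same lists were counted, with the Lgr5-Cdx2-Apc libraries shared. Against Lgr5-Apc, where 3.77% of all genes were lower and 5.22% higher, 3 of 52 further mitotic genes were lower, namely Nek2, Melk and Cdca3 at -1.03, -0.94 and -1.16, and 0 of 40 further replication genes passed, where Hells, Pola1 and Dnmt1 had the smallest p at 0.99, 0.70 and 0.63. Cdk2 was higher by 0.81 and Tfdp2 lower, at -0.63, while Ccne2 and Cdk6 at 0.83 and 0.76 and Fzr1 and E2f4 at -0.45 and -0.38 did not pass. Of the 58 histone genes 12 were lower, led by Hist1h2bk, Hist1h3i and Hist1h2bl at -1.22, -1.17 and -1.12. Against Cdx2-Apc, where 11.7% of all genes were lower and 12.1% higher, 12 of 52 further mitotic genes were lower, led by Melk, Spc24 and Nek2 at -1.26, -1.14 and -1.03. Among the 40 replication genes Gmnn and Dut were lower, at -1.02 and -0.72, and Rpa2 higher, at 0.65. Tfdp2 was lower, at -0.51, and the differences of E2f1 and E2f5, 0.61 and -0.89, and of Cdk6, Mdm2 and Cdk2, 0.87, 0.51 and 0.49, did not pass. Of the 58 histone genes 31 were lower, led by Hist1h2bl, Hist1h2bk and Hist1h1c at -1.73, -1.37 and -1.36.

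In the other 3 comparisons limma called 0 genes of these lists. For Lgr5-Apc against control, 2 of 40 further replication, 1 of 52 further mitotic, 1 of 20 G1-S, 2 of 19 E2F and DREAM and 6 of 58 histone genes had an unadjusted p under 0.05, where 10.8% of all genes did, so these counts are no result about the lists. Among them were Gmnn at -0.73, the histone message binding protein Slbp at -0.35, the kinesin Kif20b at -0.55, the inhibitor Cdkn1a at 0.75, and Fzr1, the late activator of the anaphase-promoting complex, at 0.55. For Cdx2-Apc against control the counts were 1, 0, 0, 1 and 0 (1.64% of all genes), with the dUTPase Dut at 0.40 and Fzr1 at 0.39. For Lgr5-Apc against Cdx2-Apc they were 4, 2, 2, 0 and 8 (10.4% of all genes), with Slbp at -0.56, Gmnn at -0.58, Dut at -0.52, the securin Pttg1 at -0.66 and Cdkn1a at 0.55.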

How the data were processed

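The deposited table holds FPKM, fragments scaled for gene length and library size, made by the authors with STAR, Cufflinks and Cuffdiff on mm10, per the submitters' processing notes; versions and library scaling are not stated, depth in reads is unknown, and the unit was read from the values. Of 27831 lines, 25 had names altered by a spreadsheet and stayed unnamed; the highest line of each repeated symbol was kept, leaving 27785 genes. The 17360 genes, all 41 members among them, that reached 1 FPKM in 2 or more libraries were fitted as log2(FPKM + 1), pseudocount 1, with limma 3.58.1 in R 4.3.3: 1 term per group over all 12 libraries, eBayes with trend, no replicate block, two-sided, Benjamini-Hochberg adjustment within each of 6 comparisons, called below 0.05. Fold changes of low genes are understated on this scale. Same-numbered libraries of different groups did not deviate together (median r of -0.02 over 15 pairs). The procedure was run on simulated data with independent noise for each gene. These held no differences in tissue content, so the run says nothing of how such differences affect the calls.

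The members and lists were chosen with earlier results of these data known. Library values were to be given for the called members (at most 12, by p) and for Mki67, Top2a, Ccnb1, Cdk1, Pcna, Mcm2, Rrm2 and Tk1, and the 3 genes of smallest p named in each further list; other named genes, Gins2, Nusap1 and Mcm4 among them, were chosen after their values were seen. Positions are from GENCODE on GRCm38, the build of mm10, and promoters from RefSeq GRCm38.p6.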

Additional observations from a re-analysis of the deposited data

Results flagged for a closer look

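In Lgr5-Apc, the group of 4 libraries, 43 values were checked for a library far from the others, and 2 were flagged (4.65%), where chance flags about 1 in 20. Cdc20 was at 10.6 FPKM in Lgr5-Apc replicate 1, against 20.9, 20.8 and 19.3 FPKM in replicates 2, 3 and 4. Foxm1 was at 4.30 FPKM in the same library, against 5.88, 5.69 and 5.73 FPKM in the other three. That library also held the lowest value of 6 S phase and 3 mitotic genes among all 12, a count for which no share over all genes was taken.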

How the results depend on the processing

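The direction of the mitotic median was kept in all settings run for the Lgr5-Cdx2-Apc comparisons, though the fits with the smooth muscle score extrapolate and say nothing of it. Counts of calls moved widely, together with the share of all genes called. Against control, 13 calls became 7 without the filter on low values, 20 with median-of-ratios scaling, 26 with quantile normalization and 24 with array weights, where 11.7%, 21.4%, 23.5% and 36.4% of all genes were called, against 19.1%. They became 0 with the smooth muscle or columnar epithelium score as a covariate and 1 with the squamous basal score, with 0, 0.662% and 3.47% of all genes; the smooth muscle score nearly coincides with Lgr5-Cdx2-Apc, and no gene of the table was called with it. Leaving out 1 library gave 0 to 18. Against Lgr5-Apc, 5 calls became 11 with median-of-ratios scaling, 13 with quantile normalization, 14 with equal totals without short RNAs, 17 with array weights, 0 with the compared groups alone, 1 with a replicate block, 0 with each covariate, 13 without Lgr5-Apc replicates 2 and 3 and 11 without the most squamous control and Lgr5-Apc libraries. Of all genes 10.5%, 10.5%, 11.8%, 22.1%, 0.933%, 3.34%, at most 3.04%, 27.4% and 26.2% were called there, against 8.99%. Leaving out 1 library gave 0 to 14. Against Cdx2-Apc, 12 calls became 22 with quantile normalization or array weights (28.2% and 39.9% of all genes, against 23.8%) and 0 with each covariate (at most 1.75%), and 1 to 19 without 1 library. The replicate block gave 10 calls against control and 11 against Cdx2-Apc. Its numbers do not pair the samples. Counts in the other 3 comparisons were 0 in all settings.

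With the smooth muscle, columnar and squamous basal covariates, the S phase median was -0.37, -0.22 and -0.05 against control, -0.15, -0.001 and 0.24 against Lgr5-Apc, and -0.52, -0.53 and -0.28 against Cdx2-Apc. With the smooth muscle covariate the mitotic median was -2.04, -1.50 and -1.90 in the same order, and -0.47 for Lgr5-Apc against control. For Lgr5-Cdx2-Apc, values from fits with this covariate are extrapolations, because its smooth muscle scores lie below all other libraries. Without 1 library the S phase median ran from 0.005 to 0.48 against control, from 0.21 to 0.65 against Lgr5-Apc (0.70 without Lgr5-Apc replicates 2 and 3) and from -0.33 to -0.08 for Lgr5-Apc against control (-0.44 without its replicates 2 and 3). The mitotic median ran from -1.07 to -0.57 against control and from -1.03 to -0.52 against Cdx2-Apc. With a pseudocount of 0.1 FPKM the S phase level of Lgr5-Apc replicates 1 and 4 was 2.52 and 2.56 and the mitotic level of Lgr5-Cdx2-Apc replicate 1 was 2.09. Against control, differences reversed with the smooth muscle covariate for Gins2 (-0.37), Mcm2 (-0.22), Mcm3 (-0.079) and Mcm4 (-0.23), and with the columnar covariate for Mcm2 (-0.13), Mcm3 (-0.10), Mcm4 (-0.22) and Mcm6 (-0.082). With equal totals the median of all genes was 0.11, 0.16 and 0.13 against control, Lgr5-Apc and Cdx2-Apc. Other causes of these shifts were not tested. The squamous basal covariate and the fit without the most squamous libraries were chosen after seeing the data. With 1 library left in Lgr5-Cdx2-Apc, that library is assumed to vary like the other groups.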
